A study of Mus musculus with 8 samples.

Results

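Long noncoding RNAs are transcripts that do their work as RNA and encode no protein. The 8 described here are Malat1, Neat1, Kcnq1ot1, Miat, Gas5, Snhg1, Snhg12 and Epb41l4aos. Each was taken as the row of the deposited gene count table that carries its symbol, among 57132 genes in all, and each symbol stood on 1 Ensembl identifier. They fall into 2 classes of 4. Malat1, Neat1, Kcnq1ot1 and Miat are retained in the nucleus. Gas5, Snhg1, Snhg12 and Epb41l4aos are transcripts of genes whose introns carry small nucleolar RNAs (snoRNAs).

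The libraries are bulk RNA from KPC pancreatic tumours grown under the skin of mice, with 4 samples from animals given PBS, a buffered saline, and 4 from animals given Ce6@D4-EV and then light. Ce6 stands for the photosensitiser chlorin e6, which yields reactive oxygen under light, D4-EV is its carrier as the submitters name it, and the treated group is called PDT, for photodynamic therapy. All 8 samples are labelled as sorted tumour tissue, with no marker or gate, and strain, age and harvest time were not stated. Whether the samples within a group are separate animals is likewise not stated, so p-values reflect only how far these samples spread, and the groups differ in carrier, photosensitiser and light together.

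Nuclear retention takes different forms. Malat1 sits in nuclear speckles, bodies rich in splicing factors, and Neat1 is the scaffold on which paraspeckles assemble with proteins such as Sfpq and Nono. Kcnq1ot1 is an imprinted antisense transcript that silences neighbouring genes in cis, and Miat, also called Gomafu, is best known from neurons. snoRNA hosts work the other way round: the intron is the product, since snoRNAs guide chemical modification of ribosomal RNA, and the spliced exons are exported and often destroyed by nonsense-mediated decay when ribosomes meet their early stop codons. Many hosts begin with a run of pyrimidines, the terminal oligopyrimidine motif shared with ribosomal protein genes, which couples them to growth signalling.

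Start sites are given so that the pyrimidine run can be seen in each class. RefSeq's promoter table (GRCm38.p6, a build preceding the GRCm39 named for these files) matched 6 of the 8 members with 7 entries, 2 of them for Gas5, and held no entry for Neat1 and Epb41l4aos. Each sequence below runs 5′ to 3′ in the direction of transcription from 70 bases before the start to 30 from it onwards. Capitals mark the longest unbroken run of C and T within 10 bases of the start and, where present, the letters TATA between 40 and 20 bases before it.
Gas5, second entry, chr1:161035096-161035195, plus strand: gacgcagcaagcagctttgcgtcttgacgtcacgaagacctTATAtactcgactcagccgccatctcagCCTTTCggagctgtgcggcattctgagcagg
Snhg1, chr19:8723417-8723516, plus strand: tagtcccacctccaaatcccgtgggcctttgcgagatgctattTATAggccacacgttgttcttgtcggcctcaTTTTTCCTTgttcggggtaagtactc
Snhg12, chr4:132308608-132308707, plus strand: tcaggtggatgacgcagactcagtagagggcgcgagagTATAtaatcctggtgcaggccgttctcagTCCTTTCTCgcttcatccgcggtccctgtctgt
Gas5, first entry, chr1:161034531-161034630, plus strand: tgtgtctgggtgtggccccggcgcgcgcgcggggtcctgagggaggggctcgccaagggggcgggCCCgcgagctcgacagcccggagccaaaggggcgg
Malat1, chr19:5802643-5802742, minus strand: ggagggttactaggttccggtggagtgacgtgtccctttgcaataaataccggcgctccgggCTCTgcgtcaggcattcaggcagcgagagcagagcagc
Kcnq1ot1, chr7:143296518-143296617, minus strand: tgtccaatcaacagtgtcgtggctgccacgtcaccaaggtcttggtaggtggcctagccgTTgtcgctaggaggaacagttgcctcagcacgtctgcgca
Miat, chr5:112228919-112229018, minus strand: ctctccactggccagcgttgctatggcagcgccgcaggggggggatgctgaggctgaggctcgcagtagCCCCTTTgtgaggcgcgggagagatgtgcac

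The second Gas5 entry, Snhg1 and Snhg12 carried TATA in that window, as did 5.34% of the 32851 entries in the table. Their pyrimidine runs were 6, 9 and 9 letters long. A run of at least 9 letters stood in 9.55% of all entries and one of at least 6 in 29.2%. The 3 nuclear-retained entries and the first Gas5 entry held no TATA there, and their runs were 4 letters in Malat1, 2 in Kcnq1ot1, 7 in Miat and 3 in Gas5. Run length thus did not separate the classes, since that of Miat was longer than either of Gas5, and the run of Snhg1 began 5 bases past the start. The second Gas5 entry also held TGACGTCA, a cyclic AMP response element, in its 300 bases, as did 1.79% of entries. The E-box CACGTG was in 0 of the 7 entries and in 7.15% of all. Both of these motifs read the same on either strand, TATA was searched on the transcribed direction's strand alone, and all 3 were chosen after the sequences had been read. A match is a description of the letters and no more.

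Summed gene counts ran from 35742024 to 40337306 in PBS and from 39026840 to 48804713 in PDT. If each read is counted on its own, a count of 0 still allows up to 3 reads. These are at most 0.0872 counts-per-million (CPM, of libraries scaled by trimmed means). The limit is higher if both reads of a pair are counted. PBS 1 stood apart on the first principal component (25.0% of the variance) at −111.5, against −8.53 to 37.2 for the others. Epithelial tumour markers were present in every library, with 6 of 6 genes detected and summed levels of 3475 to 7117 CPM in PBS and 3038 to 6109 CPM in PDT. Of 9 other tissue and cell type lists, 2 had summed levels that did not overlap. Macrophage markers ran from 1955 to 3969 CPM in PBS and from 4767 to 6471 CPM in PDT, with 8 of 8 genes higher in PDT, none at 0 and 1 past the threshold of the test described below (Cd68, 69.1 ± 11.95 and 124 ± 11.98 CPM, SD, n = 4, with 0.0497 as edgeR's adjusted p). Of all tested genes 0.235% passed it. The macrophage count was 0 in each of the 8 fits with 1 library left out. It was also 0 with library totals and with the correction for GC content and length. It was 4 with DESeq2 and 2 with limma-voom, beside 5.24% and 1.01% of all tested genes. Without a count filter it was 4, and with the replicate number as a block 3. In edgeR 6 of the 8 macrophage genes had an unadjusted p under 0.05. T cell markers ran from 5.15 to 11.8 CPM and from 13.2 to 16.0 CPM, with none of 6 at 0. Of these 6, 5 were higher and 1 lower in PDT, 1 had an unadjusted p under 0.05 in edgeR and 0 passed the threshold. Over all tested genes 16.5% had such an unadjusted p. Among lists whose summed levels overlapped, neutrophil markers were higher for 6 of 6 genes (median log2 difference 1.19) and skeletal muscle markers for 6 of 6 (median 1.64). Erythroid markers were lower for 5 of 5 (median −1.41). Of these 3 lists 0 genes passed in edgeR's first fit. At an unadjusted p under 0.05 there were 4 of 6 neutrophil, 2 of 6 muscle and 4 of 5 erythroid genes. DESeq2 and limma-voom each called 1 neutrophil gene and no muscle or erythroid gene. Without a count filter edgeR called 2 neutrophil, 1 muscle and 4 erythroid genes, and with the replicate block 1, 3 and 0. Summed erythroid levels were 4437 CPM in PBS 4, against 808.5 to 2638 CPM in the other PBS libraries and 590.5 to 1353 CPM in PDT. In bulk tissue, fewer cells of a type and less RNA per cell cannot be told apart, for any value below.

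Not all 8 RNAs were abundant. Ranked by mean CPM among the 16588 genes that passed the filter on low counts, Gas5 was number 850, Malat1 1531, Snhg1 1939 and Neat1 2390, all within the upper 14.4%. Epb41l4aos was number 6003 and Snhg12 8814, near the middle. Kcnq1ot1 was number 12010, and Miat did not pass the filter. By this measure 4 members were abundant. Per kilobase of exon, among 16274 genes with a length, Epb41l4aos ranked 740, ahead of Gas5 at 1097, Snhg1 at 1576 and Malat1 at 2969, and Neat1 fell to 7876, so which members count as abundant depends on length. Together the 8 took 0.0389% to 0.0671% of the reads of a library.

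Levels of different genes were compared per kilobase of exon, with exon lengths from GENCODE M21 (GRCm38) by identifier, since the annotation used for counting is not given in the sources used here. Over the 8 libraries Epb41l4aos, with 430 bases of exon, averaged 70.3 CPM per kilobase, and Gas5 47.6, Snhg1 32.6, Malat1 16.6, Snhg12 5.86, Neat1 3.90, Miat 0.0379 and Kcnq1ot1 0.0375. The first 4 of that order overlapped with their neighbours: across libraries Epb41l4aos ran from 41.7 to 105.4, Gas5 from 30.5 to 70.2, Snhg1 from 23.3 to 45.2 and Malat1 from 10.6 to 27.9 CPM per kilobase. Snhg12 (2.98 to 7.92) lay below Malat1 with no overlap and overlapped with Neat1 (2.80 to 5.58). Miat (0 to 0.143) and Kcnq1ot1 (0.0208 to 0.0651) lay below all others and overlapped with each other. Of the 4 hosts, 3 were thus above all nuclear-retained members in mean level per length, and Snhg12 was below Malat1. With the longest transcript as the length in place of all exons, Gas5 came level with Epb41l4aos at 70.3.

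**Figure D1:**
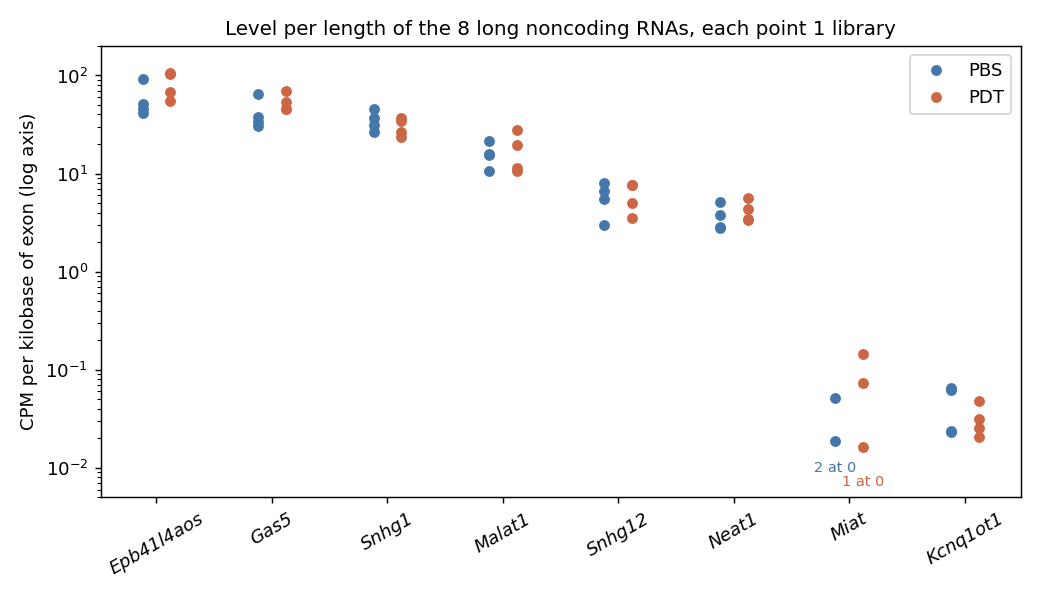
CPM per kilobase of exon on a log axis for the 8 long noncoding RNAs, ordered by mean, each point 1 library (blue PBS, orange PDT), with libraries at 0 written as a count. Epb41l4aos, Gas5 and Snhg1 lead, and Miat and Kcnq1ot1 lie below 0.2 in every library.

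The comparison of PDT with PBS asks which of these RNAs differed between treated and control tumours. In edgeR's quasi-likelihood test, adjusted over all 16588 genes, 0 of the 7 tested members passed an adjusted p of 0.05, where 0.235% of all tested genes did (0.163% with higher levels in PDT and 0.0723% with lower). The count was also 0 of 7 at an unadjusted p under 0.05, against 16.5% of all tested genes, and DESeq2 and limma-voom called 0 members as well, against 5.24% and 1.01% of all tested genes. The levels of PBS and PDT overlapped for 8 of 8 members, whereas 10.1% of all tested genes had groups that did not overlap. Of the 7, 5 had a positive log2 difference and 2 a negative one, with 49.8% of all tested genes positive. Summed macrophage and T cell markers were higher in the same PDT libraries, as given above, and their part in the members' values was not tested.

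**Figure D2:**
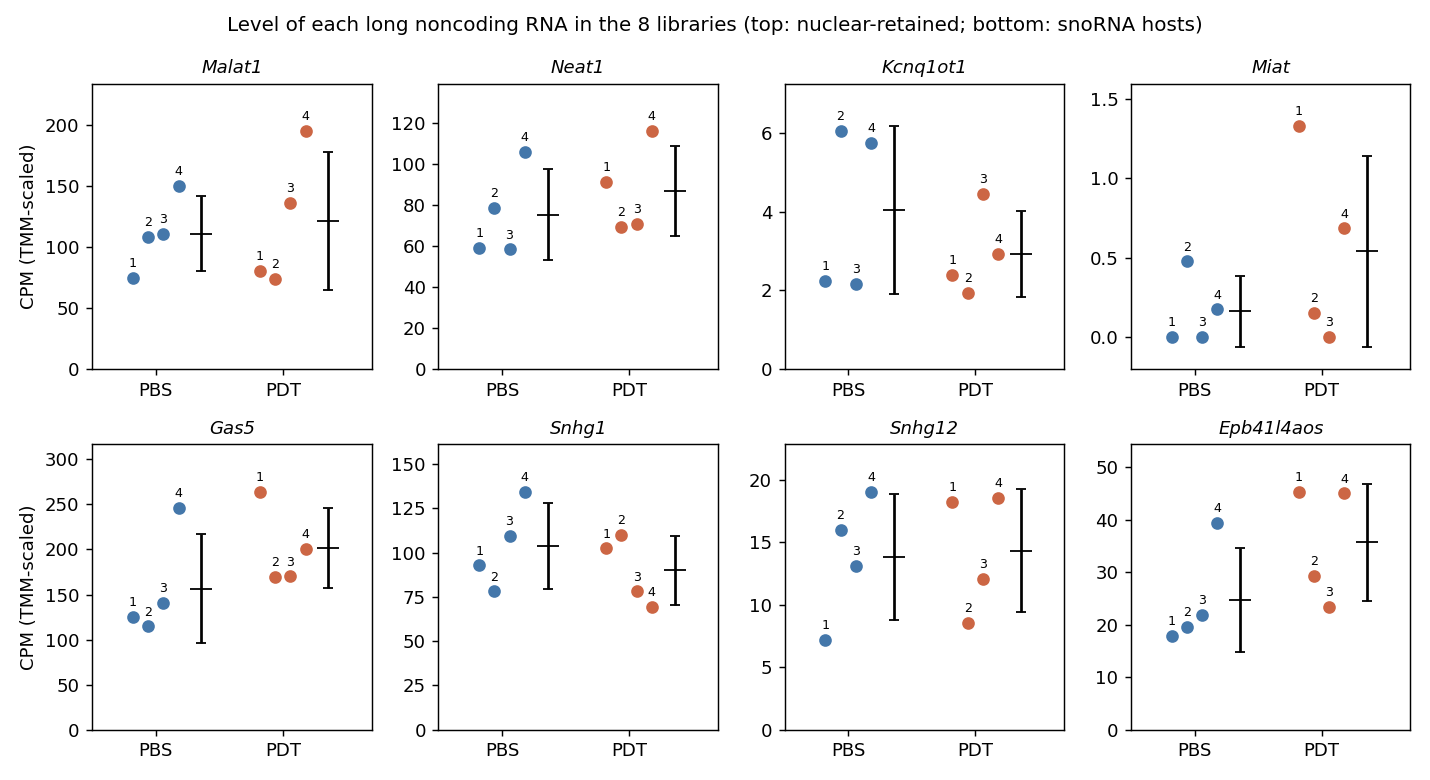
CPM of each RNA in the 4 PBS (blue) and 4 PDT (orange) libraries, numbered by replicate, with mean ± SD in black beside each group. The groups overlap in all 8 panels, and replicate 4 is the highest of its group for Malat1 and Neat1 in both groups.

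Among the nuclear-retained RNAs, Malat1 (ENSMUSG00000092341) was at 74.5, 108, 110.5 and 149.7 CPM across PBS 1 to PBS 4, and at 79.96, 73.9, 136 and 195 CPM across PDT 1 to PDT 4. The PDT libraries thus spread to both sides of the PBS libraries, with PDT 1 and PDT 2 low and PDT 4 the highest of all. The means were 111 ± 30.7 and 121 ± 56.4 CPM (SD, n = 4), or 0.13 ± 0.30 in log2 units (SE, with 0.887 as edgeR's adjusted p) with a 95% interval of −0.52 to 0.78. The sign of this difference rested on single libraries: it was −0.02 without PBS 1 and −0.19 without PDT 4. With the correction for GC content and length it was 0.35.

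Neat1 (ENSMUSG00000092274), the paraspeckle scaffold, was at 58.9, 78.3, 58.2 and 105.7 CPM across PBS 1 to PBS 4, and at 91.2, 69.2, 70.7 and 116 CPM across PDT 1 to PDT 4. Every PDT value lay between or just above those of PBS. Its log2 difference was 0.21 ± 0.22 (SE, with 0.715 as edgeR's adjusted p), with a 95% interval of −0.28 to 0.69, whose upper end is 1.61-fold. Without PBS 4 the difference was 0.43, and without PDT 4 it was 0.04 (adjusted p = 0.327 and 0.97, both by edgeR). It was 0.11 without PBS 1, 0.10 without PBS 3 and 0.45 with the correction for GC content and length.

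Malat1 and Neat1 were both highest in replicate 4 of each group. These are also the libraries with the largest share of 18S ribosomal RNA reads left after depletion, at 0.546% in PBS 4 and 1.34% in PDT 4 against 0.241% to 0.363% in the other 6. Genes with at least 1 read were likewise most numerous there within each group, at 19835 in PBS 4 and 22317 in PDT 4. The part of depletion or of detection in the levels of Malat1 and Neat1 was not tested.

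Kcnq1ot1 (ENSMUSG00000101609) was low, with 82, 254, 82 and 198 reads across PBS 1 to PBS 4, and 108, 76, 200 and 120 across PDT 1 to PDT 4. In CPM these were 2.23, 6.06, 2.16 and 5.76 in PBS and 2.39, 1.94, 4.46 and 2.93 in PDT. PBS fell into 2 low and 2 high libraries, and the PDT values lay among them except for PDT 2, which was below every PBS library. The log2 difference was −0.47 ± 0.45 (SE, with 0.672 as edgeR's adjusted p), with a 95% interval of −1.45 to 0.52, or from 0.366-fold to 1.43-fold. The estimate was −0.20 without PBS 2, −0.24 without PBS 4, −0.30 without PDT 2, −0.74 without PDT 3 and −0.10 with the correction for GC content and length. Kcnq1ot1 lies antisense to the potassium channel gene Kcnq1, and with the strand setting of the counting not given, reads of the pair could not be assigned with certainty. Kcnq1 itself, named here for that overlap, averaged 30.5 ± 12.6 CPM in control tumours and 29.2 ± 11.7 CPM in treated ones (SD, n = 4).

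Miat (ENSMUSG00000097767) was close to undetected. It had 0, 20, 0 and 6 reads across PBS 1 to PBS 4, and 60, 6, 0 and 28 across PDT 1 to PDT 4. Its highest level, 1.33 CPM in PDT 1, compares with a limit of 0.0665 CPM that 3 reads correspond to in that library. It was not tested, because it failed the filter on low counts, and a difference between groups was not detectable at this depth. Of 6 neuron markers, all had reads, with summed levels of 32.0 to 44.6 CPM in PBS and 27.9 to 46.6 CPM in PDT.

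Among the snoRNA hosts, Gas5 (ENSMUSG00000053332), whose introns carry a cluster of C/D box snoRNAs and whose spliced RNA accumulates in growth-arrested cells, was the most read member. It stood at 125, 115, 141 and 246 CPM across PBS 1 to PBS 4, and at 264, 169.8, 170.2 and 201 CPM across PDT 1 to PDT 4. All 4 PDT libraries were above PBS 1, PBS 2 and PBS 3, and PBS 4 alone reached into the PDT range. PBS 4 is also the library with the highest erythroid markers, whose part in its Gas5 and Epb41l4aos levels was not tested. The means were 157 ± 60.5 and 201 ± 44.3 CPM (SD, n = 4), or 0.36 ± 0.24 in log2 units (SE, with 0.498 as edgeR's adjusted p) with a 95% interval of −0.16 to 0.88. Without PBS 4 the log2 difference was 0.68 (adjusted p = 0.0941 by edgeR), the smallest adjusted p of any member under any setting. It was 0.24 without PBS 2 and 0.215 without PDT 1.

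Epb41l4aos (ENSMUSG00000087590), transcribed divergently from Epb41l4a and host of an H/ACA box snoRNA, had the largest difference of the tested members. It was at 17.9, 19.6, 21.8 and 39.5 CPM across PBS 1 to PBS 4, and at 45.3, 29.2, 23.4 and 45.0 CPM across PDT 1 to PDT 4. As for Gas5, the PDT libraries lay above the first 3 PBS libraries and PBS 4 lay within the PDT range. The means were 24.7 ± 9.98 and 35.7 ± 11.2 CPM (SD, n = 4), or 0.53 ± 0.28 in log2 units (SE, with 0.38 as edgeR's adjusted p). Its 95% interval ran from −0.08 to 1.15, or from 0.945-fold to 2.22-fold. Correction for GC content and transcript length brought it to 0.29, and leaving out PBS 4 to 0.87 (adjusted p = 0.592 and 0.107, both by edgeR).

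Snhg1 (ENSMUSG00000108414), which carries a row of C/D box snoRNAs and lies beside the amino acid transporter gene Slc3a2, did not follow the pattern of Gas5. Its levels were 92.7, 78.0, 109 and 134 CPM across PBS 1 to PBS 4, and 102, 109.8, 78.0 and 69.3 CPM across PDT 1 to PDT 4. The lowest value was in PDT 4, where Malat1 was highest. Its log2 difference was −0.21 ± 0.19 (SE, with 0.663 as edgeR's adjusted p) with a 95% interval of −0.63 to 0.22. Without PBS 4 the difference was −0.04, without PDT 4 it was −0.09, and without PBS 2 it was −0.32.

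Snhg12 (ENSMUSG00000086290), host of H/ACA box and C/D box snoRNAs, was at 7.16, 15.95, 13.1 and 19.02 CPM across PBS 1 to PBS 4, and at 18.2, 8.51, 12.04 and 18.5 CPM across PDT 1 to PDT 4. The groups covered nearly the same span, with PBS 1 and PDT 2 the lowest of their groups. The log2 difference was 0.05 ± 0.32 (SE, with 0.958 as edgeR's adjusted p), with a 95% interval of −0.64 to 0.74. Its sign turned without PBS 1 (−0.16), without PDT 1 (−0.07) and without PDT 4 (−0.08).

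**Figure D3:**
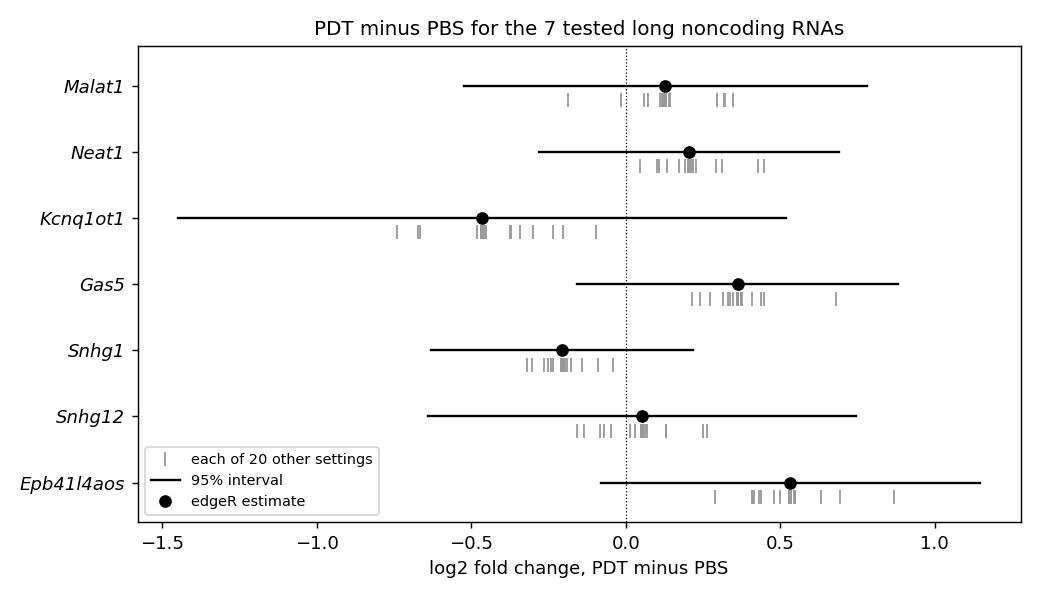
Log2 fold change of PDT minus PBS for the 7 tested RNAs (black point, edgeR estimate; black line, 95% interval), with grey ticks for the same value under each of the 20 other settings. All 7 intervals include 0, and the estimates run from −0.47 for Kcnq1ot1 to 0.53 for Epb41l4aos.

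The 2 classes were then set against each other inside each library, where gene length drops out of any difference between libraries. The mean log2 CPM of the 4 nuclear-retained RNAs minus that of the 4 hosts was −2.89, −1.67, −3.15 and −2.56 across PBS 1 to PBS 4, and −2.46, −2.79, −2.69 and −1.97 across PDT 1 to PDT 4. Hosts were higher than nuclear-retained RNAs in all 8 libraries by this measure, and the groups overlapped. The group means were −2.57 ± 0.64 and −2.48 ± 0.36 (SD, n = 4), which differ by 0.09, less than either SD, and no test was made of this score over the members. The measure leans on Miat, whose log2 level at 0 reads is set by the prior count of 2. Without Miat, a choice made after the values were seen, the class difference was −0.60 ± 0.33 in PBS and −0.84 ± 0.50 in PDT, a change of −0.24, with hosts still higher in all 8 libraries. The nuclear-retained mean then still held Kcnq1ot1, at 1.94 to 6.06 CPM, and the score without both was not computed. Malat1 and Neat1, each at 58.2 CPM or more in every library, lay above Epb41l4aos and Snhg12, at 45.3 CPM or less. The order of the classes by this measure thus leans on Kcnq1ot1 as well as Miat. Summed CPM gave the same order, with the 4 hosts at 1.18 to 1.79 times the 4 nuclear-retained RNAs in PBS and at 1.06 to 2.46 times in PDT.

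The balance of the classes varied among the PDT libraries. By summed CPM, hosts stood at 430 against 175 for nuclear-retained RNAs in PDT 1, a ratio of 2.46, and at 334 against 314 in PDT 4, a ratio of 1.06. PDT 2 (2.19) resembled PDT 1 and PDT 3 (1.34) lay nearer PDT 4. The ratio of Gas5 to Malat1 CPM showed the same split, at 3.30 and 2.30 in PDT 1 and PDT 2 and at 1.25 and 1.03 in PDT 3 and PDT 4, with 1.06 to 1.68 in PBS. The Gas5 to Malat1 ratio of PDT 3 thus lay within the PBS range and that of PDT 4 just below it. Those of PDT 1 and PDT 2 lay above it.

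Hosts also differed among themselves. Gas5 stood at 1.35, 1.47, 1.29 and 1.83 times the CPM of Snhg1 across PBS 1 to PBS 4, and at 2.58, 1.55, 2.18 and 2.90 times across PDT 1 to PDT 4. PDT 2 alone fell within the PBS range. The ratio of Epb41l4aos to Snhg1 followed suit, at 0.193 to 0.294 in PBS and 0.443, 0.266, 0.2995 and 0.65 in PDT 1 to PDT 4. These ratios were chosen after the levels were seen and are given without a test. The ratio of Gas5 to Epb41l4aos, by contrast, stayed between 4.47 and 7.28 over all 8 libraries.

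**Figure D4:**
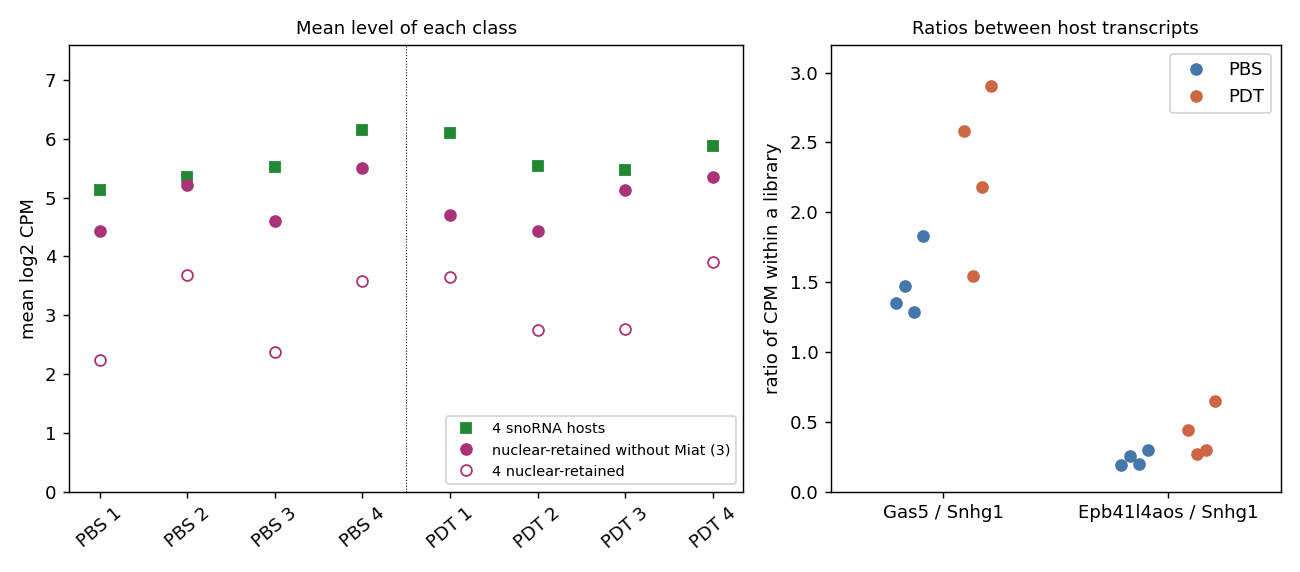
Left, mean log2 CPM per library of the 4 snoRNA hosts (green squares), of the 4 nuclear-retained RNAs (open circles) and of the latter without Miat (filled circles). Right, ratio of Gas5 and of Epb41l4aos to Snhg1 CPM within each library, where PDT 2 lies inside the PBS range and the other 3 PDT libraries lie above it.

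Across the 8 libraries, log2 CPM of Gas5 and Epb41l4aos went together most closely of the 28 pairs of members. Pearson's r was 0.927 (exact permutation p = 0.00181, adjusted over 28 pairs p = 0.0507) and Spearman's rho 0.929 (exact permutation p = 0.00223, adjusted p = 0.0625). Without PBS 2 and PDT 1, the libraries farthest from the median of Gas5, r was 0.9. With values centred on their group means, r was 0.901. Neat1 followed both Epb41l4aos (r = 0.85, exact permutation p = 0.0123, adjusted p = 0.171) and Snhg12 (r = 0.797, exact permutation p = 0.0187, adjusted p = 0.175). Their rho was 0.714 (adjusted permutation p = 0.256) and 0.833 (adjusted permutation p = 0.215), and r without PBS 4 and PDT 4 was 0.728 and 0.713. Malat1 and Neat1, neighbours on the same chromosome, had r = 0.637 and rho = 0.595 (adjusted exact permutation p = 0.264 and 0.302), which fell to r = 0.375 without PDT 2 and PDT 4. Snhg1 had r of at most 0.352 with any other member, that with Gas5, which was 0.637 on values centred on their group means. Of the 28 pairs, 0 passed an adjusted p of 0.05. With relative log expression (RLE) scaling, 1 pair did.

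**Figure D5:**
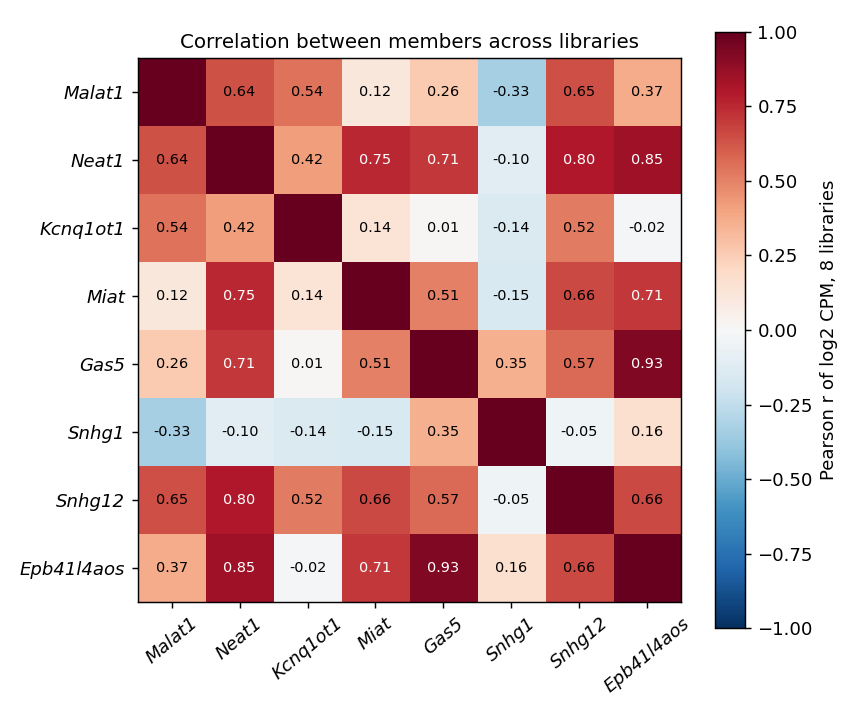
Pearson's r of log2 CPM between each pair of the 8 RNAs across the 8 libraries, from −1 (blue) to 1 (red), with the value in each cell. Gas5 with Epb41l4aos is highest at 0.93, and the row of Snhg1 stays between −0.33 and 0.35.

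Among 13185 other genes with a mean of at least 1 CPM, those whose log2 CPM over the 8 libraries was most like that of Malat1 were Plcb3 (r = 0.988), Csnk1d (r = 0.963) and Ccdc148 (r = 0.961). Plcb3 encodes a phospholipase C and Csnk1d a casein kinase. For Gas5 they were Smn1 (r = 0.996), Rpl19 (r = 0.988) and Rps29 (r = 0.975), of which Smn1 encodes the survival of motor neuron protein and the other two encode ribosomal proteins. These genes were picked by r itself, so no test applies, and all points share their library's scaling. Their log2 differences ran from 0.01 ± 0.12 (SE) for Csnk1d to 0.59 ± 0.32 for Rps29, with adjusted p of 0.984 and 0.392 by edgeR, and 0 of the 6 passed the threshold.

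Other snoRNA hosts gave the wider picture for this class. Of 17 listed, 14 were tested, 8 were higher and 6 lower in PDT with a median log2 difference of 0.14, beside −0.002 over all tested genes, and 0 passed the threshold in edgeR, DESeq2 or limma-voom. At an unadjusted p under 0.05 there were 2 of 14, where 16.5% of all tested genes were. Snhg8 averaged 34.6 ± 6.55 CPM in control tumours and 51.7 ± 15.6 CPM in treated ones (SD, n = 4), or 0.58 ± 0.22 in log2 units (SE, with 0.21 as edgeR's adjusted p). Snhg17, named after its value was seen, differed by −0.41 ± 0.19 (adjusted p = 0.294 by edgeR). Snhg3 was listed at 0 in every library.

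Terminal oligopyrimidine mRNAs outside the ribosome, listed for the start motif that many hosts are known for, were balanced. Their own start sites were not examined. Of 10 genes, 5 were higher and 5 lower with a median log2 difference of −0.003, and 0 had an unadjusted p under 0.05 or were called by any of the 3 tools. Hnrnpa1, which encodes a splicing regulator, had the smallest p, with or 0.25 ± 0.16 in log2 units (SE, with 0.472 as edgeR's adjusted p).

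Proteins that package snoRNAs came next. Of 10 listed genes, 8 were higher and 2 lower with a median log2 difference of 0.27. In edgeR 0 passed over all genes, 5 had an unadjusted p under 0.05 with higher levels and 1 with lower levels, beside 8.63% and 7.87% of all tested genes. DESeq2 called 4 and limma-voom 0, beside 5.24% and 1.01% of all tested genes. Gar1, a subunit of H/ACA particles, averaged 15.0 ± 4.56 CPM in control tumours and 34.5 ± 16.2 CPM in treated ones (SD, n = 4), or 1.198 ± 0.30 in log2 units (SE, with 0.0978 as edgeR's adjusted p, 0.00377 by DESeq2 and 0.00408 by edgeR without a count filter). Correction for GC content and length brought Gar1 to 0.832, and leaving out PDT 4 to 0.835 (adjusted p = 0.161 and 0.204, both by edgeR). The other higher genes with an unadjusted p under 0.05 included the H/ACA proteins Nhp2 at 0.85 ± 0.24 and Nop10 at 0.50 ± 0.19. The rest of them were the C/D methyltransferase Fbl at 0.65 ± 0.19 and the nucleolar chaperone Nolc1 at 0.30 ± 0.13. Naf1, an assembly factor of H/ACA particles, differed by −0.49 ± 0.13. These 5 were named after their values were seen, and their adjusted p by edgeR ran from 0.102 to 0.285.

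Nonsense-mediated decay factors, which act on spliced host transcripts, had a median log2 difference of 0.03, with 6 of 10 higher, 4 lower and 0 past the threshold in any of the 3 tools. At an unadjusted p under 0.05 there were 2 of 10, near the 16.5% of all tested genes, namely Upf3a at 0.72 ± 0.26 (SE, adjusted p = 0.192 by edgeR) and, named after its value was seen, the kinase Smg1 at −0.42 ± 0.18 (adjusted p = 0.27 by edgeR).

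Protein partners of the nuclear-retained RNAs gave 0 edgeR calls. Paraspeckle proteins had a median of 0.12, with 9 of 10 higher. Of these, edgeR called 0, DESeq2 called 1, beside 5.24% of all tested genes, and limma-voom called 0. Hnrnph3 averaged 6.47 ± 1.58 CPM in control tumours and 11.4 ± 2.57 CPM in treated ones (SD, n = 4) with no overlap, or 0.82 ± 0.26 in log2 units (SE, with 0.149 as edgeR's adjusted p). At an unadjusted p under 0.05 there were 2 of the 10 paraspeckle genes, again near 16.5%. Nuclear speckle proteins had a median of −0.10, with 3 of 10 higher and 0 past the threshold in any of the 3 tools. Son, a speckle scaffold, was at 198 ± 6.52 and 162 ± 12.2 CPM with no overlap, or −0.28 ± 0.11 in log2 units (SE, with 0.212 as edgeR's adjusted p). Besides Son, Srsf5 had an unadjusted p under 0.05, at 0.29 ± 0.13 (adjusted p = 0.297 by edgeR), and was named after its value was seen.

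In the imprinted domain around Kcnq1ot1, 8 of 10 genes were higher, with a median of 0.21. There edgeR called 0, DESeq2 called 1 and limma-voom called 1, where the last 2 called 5.24% and 1.01% of all tested genes. Cdkn1c, a cell cycle inhibitor silenced in cis by Kcnq1ot1 on the paternal allele, averaged 6.68 ± 3.496 CPM in control tumours and 21.8 ± 7.09 CPM in treated ones (SD, n = 4) with no overlap, or 1.71 ± 0.38 in log2 units (SE, with 0.0745 as edgeR's adjusted p, 0.000398 by DESeq2, 0.0433 by limma-voom and 0.00142 by edgeR without a count filter). Correction for GC content and length brought Cdkn1c to 1.34 (adjusted p = 0.153 by edgeR). Tssc4, named after its value was seen, was the other gene with an unadjusted p under 0.05, at 0.81 ± 0.27 (adjusted p = 0.159 by edgeR). Kcnq1ot1 in the same libraries differed by −0.47 ± 0.45, with the adjusted p given above.

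Neighbours that adjoin members at the genome were mixed, with 3 of 6 higher, a median of 0.08 and 0 past the threshold in edgeR. Trnau1ap, beside Snhg12, was at 28.6 ± 5.58 and 44.7 ± 9.70 CPM (SD, n = 4), or 0.64 ± 0.19 in log2 units (SE, with 0.124 as edgeR's adjusted p, 0.0375 by DESeq2), against 0.05 ± 0.32 for Snhg12 itself. Correction for GC content and length brought Trnau1ap to 0.38 (adjusted p = 0.296 by edgeR). It was the 1 gene of the 6 that DESeq2 called, beside 5.24% of all tested genes, and limma-voom called 0.

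Of 20 other long noncoding RNAs, 18 were tested, 6 were higher and 12 lower with a median of −0.14. Of the 18, edgeR called 0, DESeq2 called 3 and limma-voom called 1, beside 0.235%, 5.24% and 1.01% of all tested genes. Meg3, an imprinted maternal transcript, averaged 4.64 ± 2.33 CPM in control tumours and 14.45 ± 4.23 CPM in treated ones (SD, n = 4) with no overlap, or 1.64 ± 0.36 in log2 units (SE, with 0.0769 as edgeR's adjusted p, 0.000846 by DESeq2, 0.0433 by limma-voom and 0.0033 by edgeR without a count filter). H19 and Rian, both imprinted and both called by DESeq2, differed by 0.91 ± 0.25 and 0.80 ± 0.28, and Tug1, a widely expressed RNA, by −0.34 ± 0.12. Adjusted p of these 3 was 0.107, 0.182 and 0.192 by edgeR, and the choice of these names followed their values. Xist, the RNA of the inactive X chromosome, was listed at 0 in all 8 libraries.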

How the data were processed

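Directional libraries were prepared from rRNA-depleted total RNA, per the labels' protocols. Raw counts of reads per gene for 8 samples were deposited by the authors in 1 table, per the file headers. Per the submitters' processing notes, the tools included cutadapt 4.6 and STAR 2.7.11b, with build GRCm39. No source used here gives the counter, its strand option or the annotation, so members that overlap other genes are uncertain. Between 77.9% and 83.8% of counts from 1 to 20 were even, as when both reads of a pair are counted. The 484 rows without a symbol held at most 0.0176% of a library.

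Counts were tested with R 4.3.3 and edgeR 4.0.16 (filterByExpr, TMM scaling, quasi-likelihood test, Benjamini-Hochberg adjustment over 16588 genes, threshold 0.05). The standard error is the log2 fold change over the root of F, and intervals use the fit's degrees of freedom. DESeq2 1.42.0 and limma 3.58.1 (voom with sample quality weights) were alternatives, with 3 scalings, 2 filters, genes removed, counts halved and rounded up, a correction for GC content and length with splines of 4 degrees of freedom (98.1% of genes matched), each library left out, and the replicate number as a block. The fit was run on simulated data, where the requirement was recovery of large set changes. Its recovery of changes as small as the members' estimates is not given here. Correlations used exact permutation over 8 libraries (scipy 1.17.1). Log2 CPM used a prior count of 2. The members and lists were chosen with earlier results of these data known. Named genes are the members, the gene with the smallest p of each list, any gene past the threshold, and the 3 genes most like Malat1 and Gas5, where predicted genes and mitochondrial or ribosomal RNAs were skipped. The values of 1 listed gene are not reported here.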

Additional observations from a re-analysis of the deposited data

How the results depend on the processing

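Under all 20 alternatives, the replicate block included, 0 of the tested members passed the threshold. Only 0.235% of all tested genes passed in the first fit, so a count of 0 does not show that the members were unchanged. Whether replicate numbers pair the samples is not stated, and a correlation over all genes cannot settle it. Deviations of same-numbered samples correlated at 0.0385 to 0.069, and those of differently numbered samples at −0.1239 to 0.1364. With the replicate block, Gar1 and Meg3 passed in edgeR (adjusted p = 0.0311 and 0.0326). The number of all genes past the threshold, 39, was 69 with upper quartile scaling, 534 without a count filter, 88 with a filter of 1 CPM in 4 samples, 67 with counts halved, 182 with the replicate block, 869 with DESeq2, 167 with limma-voom and 14 with the correction for GC content and length. With 1 library left out it ran from 0 (without PBS 3 or PDT 1, with 2349 and 2162 genes at an unadjusted p under 0.05) to 122 (without PBS 4), with 10, 4, 112, 3 and 3 without PBS 1, PBS 2, PDT 2, PDT 3 and PDT 4. The cause of these shifts was not tested. Some signs turned. Snhg12 was at −0.046 with limma-voom and −0.13 with the GC and length correction, which also gave −0.06 for Plcb3, −0.15 for Csnk1d, −0.039 for Smn1 and −0.015 for Rpl19. Csnk1d was at −0.021 with library totals. With 1 library left out, Malat1 ran from −0.19 to 0.32, Snhg12 from −0.16 to 0.26, Plcb3 from −0.10 to 0.20, Csnk1d from −0.03 to 0.07 and Ccdc148 from −0.10 to 0.35. The difference between classes, 0.09, moved by less than 1 SD under the alternatives run for it (3 scalings, genes removed, counts halved, another prior count, single members left out, summed CPM), but its sign was not stable, at −0.09 with summed CPM and −0.10 to 0.39 with 1 library left out. It was not computed for the other tools, the filters, the replicate block or the GC and length correction. The count of pairs of members past the threshold, 0, was 1 with RLE scaling. Depth limits Miat, at 0 to 60 reads, and Kcnq1ot1, at 76 to 254.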

Other observations

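The snoRNAs of the hosts that had a row of their own had no reads. Of 10 snoRNA symbols listed for Gas5, 8 for Snhg1 and 5 for Snhg12 and Epb41l4aos, 8 in all had a row in the table. The other listed snoRNAs had no row and were not measured. These 8 were at 0 in every library, and those with a length in GENCODE M21 are 66 to 130 bases long. The part of their length, or of overlap with host exons, in these zeros was not tested. Gas5 itself had 4595 to 11906 reads. Its exons merge into 3 blocks in GENCODE M21, and its row does not tell spliced from unspliced RNA. Other small RNAs were near 0 as well. Of 8 small nuclear and polymerase III RNAs, 5 were at 0 in all libraries, and Rn7sk, the RNA that holds the elongation factor P-TEFb inactive, averaged 0.863 ± 0.736 CPM in control tumours and 2.21 ± 1.60 CPM in treated ones (SD, n = 4), with or 1.36 ± 0.76 in log2 units (SE, with 0.414 as edgeR's adjusted p).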
